A study of Mus musculus with 11 samples.

Results

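The AMPA and kainate receptors are built from 9 subunits, encoded by Gria1 to Gria4 and Grik1 to Grik5, and all 9 genes were measured among 19987 genes that could be named on the arrays, of which 17189 were bright enough to be tested. They were taken as every mouse probe whose transcript accession belongs to 1 of these symbols, which gave 14 probes, 7 for AMPA and 7 for kainate subunits, and every probe is reported. The samples were hypothalami of male C57BL/6N offspring at postnatal day 21 (P21), cut out behind the optic chiasm. In the control group (CO, n = 5) the dams had eaten standard chow, and in the HFD group (n = 6) a high-fat diet, before conception and throughout gestation and lactation. No sample carried an engineered allele or received any other agent. The methods limit how many offspring of a dam were taken, but which samples shared a dam is not stated in the labels or methods, so the p-values treat all samples as independent. The labels of the CO samples share leading numbers, but what these numbers stand for is not stated.

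AMPA and kainate receptors are glutamate-gated cation channels made of 4 subunits each. AMPA receptors carry most fast excitatory transmission, and the GluA2 subunit encoded by Gria2, once its transcript is edited by an RNA deaminase, makes the channel nearly impermeable to calcium. Kainate receptors act both before and after the synapse. The subunits of Grik1 to Grik3 can form channels alone, whereas those of Grik4 and Grik5 bind kainate with high affinity and need a partner of the first kind. In the hypothalamus glutamate drives neurons of the feeding circuits through these receptors.

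The signal is the brightness of a spot after the scanner software had subtracted the background, and the log2 values below are relative to the 75th percentile of the same array. That percentile was 2216 to 2932 on the CO arrays and 3135 to 3447 on the HFD arrays, and 82.5 to 85.7% of spots on the CO arrays and 71.8 to 77.4% on the HFD arrays were well above background. The groups were scanned in sessions 337 days apart on 4 slides, with no slide holding both groups, so the diet of the dams cannot be told apart from the session, the slide or the scanner software's protocol. The 8 control RNAs spiked into each labelling reaction were 0.67 higher on the log2 scale relative to the percentile in HFD (two-sided exact permutation test, p = 0.00216, which is the lowest value 5 against 6 samples allow). Because this is bulk tissue, fewer cells of a type and less RNA per cell cannot be told apart.

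Of the 14 probes, 13 were well above background on all 11 arrays, none was saturated and all 14 were tested. In HFD offspring 8 probes were higher and 3 were lower, and 3 did not pass the threshold (limma, adjusted p under 0.05 over 31796 probes). One of the lower probes, a dim Grik3 probe, passed the brightness filter through the CO arrays, and 2 probes were lower when all 11 arrays had to be well above background. Over all probes tested, 23.5% were higher and 43.6% lower. The groups did not overlap for 9 member probes, of which 8 had all HFD samples on the upper side, against 17.4% of all probes, and 1 on the lower side, against 30.6%. Counted by the brightest probe of each gene, 5 of the 9 genes were higher, beside 22.2% of all genes, and 2 were lower, beside 44.1%. The median difference was 0.94 over the 9 genes and -0.17 over all genes. Grik2 entered these gene values by A_55_P2039981, which by group mean was its brighter probe in HFD only. Its other probe, A_55_P2039992, was at 0.01. With that probe Grik2 would not count as higher, and the median of the 9 genes would be lower. Over the 14 member probes the median was 0.76. With the mean over each gene's probes the counts were again 5 higher and 2 lower.

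Promoter sequences are shown for 3 genes with large increases, Gria2, Gria4 and Grik2, and for Grik4, which fell. They are the 250 bases before the transcription start from RefSeq, build GRCm38.p6, written 5′ to 3′ along the gene. The promoter table used here matched 6 of the 9 genes, and sequences of Gria1, Gria3 and Grik1 were not used. Capitals mark a GC box, GGGCGG, on either strand, or in Gria2 the letters of a site like that of REST, the repressor of neuronal genes.
Gria2 (chr3:80802836-80803085, minus strand): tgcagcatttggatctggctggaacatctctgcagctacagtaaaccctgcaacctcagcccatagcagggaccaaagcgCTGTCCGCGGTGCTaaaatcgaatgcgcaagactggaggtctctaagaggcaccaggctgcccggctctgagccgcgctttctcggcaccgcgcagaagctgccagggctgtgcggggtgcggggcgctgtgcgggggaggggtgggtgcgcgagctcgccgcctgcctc
Gria4 (chr9:4796235-4796484, minus strand): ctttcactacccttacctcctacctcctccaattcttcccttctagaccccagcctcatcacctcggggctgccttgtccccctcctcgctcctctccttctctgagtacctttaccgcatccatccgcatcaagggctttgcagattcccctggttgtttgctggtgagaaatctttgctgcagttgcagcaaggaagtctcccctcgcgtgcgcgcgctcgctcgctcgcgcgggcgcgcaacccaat
Grik2 (chr10:49788755-49789004, minus strand): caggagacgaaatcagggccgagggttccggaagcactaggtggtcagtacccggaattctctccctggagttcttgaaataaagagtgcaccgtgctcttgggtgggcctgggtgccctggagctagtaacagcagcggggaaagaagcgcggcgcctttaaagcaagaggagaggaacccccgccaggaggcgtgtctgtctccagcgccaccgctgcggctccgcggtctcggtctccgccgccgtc
Grik4 (chr9:42944372-42944621, minus strand): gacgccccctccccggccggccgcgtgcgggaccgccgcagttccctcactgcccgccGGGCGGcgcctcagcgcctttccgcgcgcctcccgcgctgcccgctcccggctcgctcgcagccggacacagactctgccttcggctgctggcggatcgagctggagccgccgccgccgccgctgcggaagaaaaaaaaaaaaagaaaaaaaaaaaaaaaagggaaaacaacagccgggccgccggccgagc

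The GC box stood in the windows of Grik3, Grik4 and Grik5, with 6, 1 and 2 matches, and in none of those of Gria2, Gria4 and Grik2. It was found in 32.7% of 32851 promoter windows of the same length. TATAAA, held by 12.4% of windows, and TGACGTCA, the cAMP response element, held by 1.55%, had no match in the 6 windows. REST was first searched on both strands as CAGCACC and GGACAG with 2 bases between them, which 0.0335% of windows hold, and none of the 6 windows matched. After the Gria2 window had been read, the left part was shortened to AGCACC. With the shorter form Gria2 matched on the opposite strand at -170 to -157 from the start, as did 0.0457% of all windows, so this match was found by a search fitted to it. The GC content was 64.8% in Gria2, 58.8% in Gria4, 62.8% in Grik2 and 69.6% in Grik4.

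Gria1, the subunit best known for activity-dependent insertion into synapses, had nearly equal relative levels in both groups. Its log2 level was 2.03 ± 0.14 (SD, n = 5) among the CO samples and 2.05 ± 0.13 (SD, n = 6) among the HFD samples, and the difference of 0.02 had a 95% interval from -0.17 to 0.20 (limma adjusted p = 0.857). Relative to the percentile the groups overlapped over almost their whole range. Before that scaling the signals did not overlap, at 9529 to 10843 in CO and 11848 to 15016 in HFD. Relative to the spiked control RNAs instead, Gria1 was lower in HFD, by -0.65.

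Gria2 showed the largest difference of the 9 genes. The brighter probe, A_65_P00930, had signals of 1104, 751, 1314, 1627 and 698 in CO samples 1 to 5. In HFD the lowest, median and highest signals were 6483, 7825 and 8175. All HFD samples were above all CO samples, and CO samples 2 and 5 were the lowest. The level rose by 2.48 on the log2 scale (SE 0.17), or 5.57-fold (limma adjusted p = 5.90e-07). The dimmer probe, A_55_P2031327, read 217, 190, 256, 361 and 167 in CO samples 1 to 5 and 647 to 891 in HFD. It rose by 1.32 (SE 0.14), or 2.49-fold (limma adjusted p = 8.94e-06), again without overlap, and by 0.88 with a normexp background correction. Both probes placed the CO samples in the same order of relative level, with samples 3 and 4 high and samples 2 and 5 low.

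Gria3, an X-linked subunit that commonly assembles with GluA2, rose on both of its probes. A_52_P68221 had signals of 1062, 970, 1158, 1829 and 798 in CO samples 1 to 5 and of 4146 to 5086 in HFD (median 4726). The difference was 1.67 (SE 0.13), or 3.18-fold (limma adjusted p = 1.22e-06). On A_52_P179309 the difference was 0.86 (SE 0.13, limma adjusted p = 1.56e-04). Neither probe showed overlap between the groups. Relative to the spiked control RNAs A_52_P179309 was 0.19 higher and did not pass the threshold (limma adjusted p = 0.212).

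Gria4, whose subunit gives fast channels, also rose on both probes. A_55_P1987725 read 3076, 3142, 4068, 5119 and 2698 in CO samples 1 to 5 and 9779 to 11325 in HFD (median 10529). The increase was 1.18 (SE 0.11), or 2.26-fold (limma adjusted p = 3.87e-06). For A_52_P349182 it was 0.66 (SE 0.16, limma adjusted p = 0.00356), and the lowest HFD sample, at -1.38, was just above the highest CO sample, at -1.39. Relative to the spiked control RNAs this dimmer probe did not differ, with a value of -0.013.

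**Figure D1:**
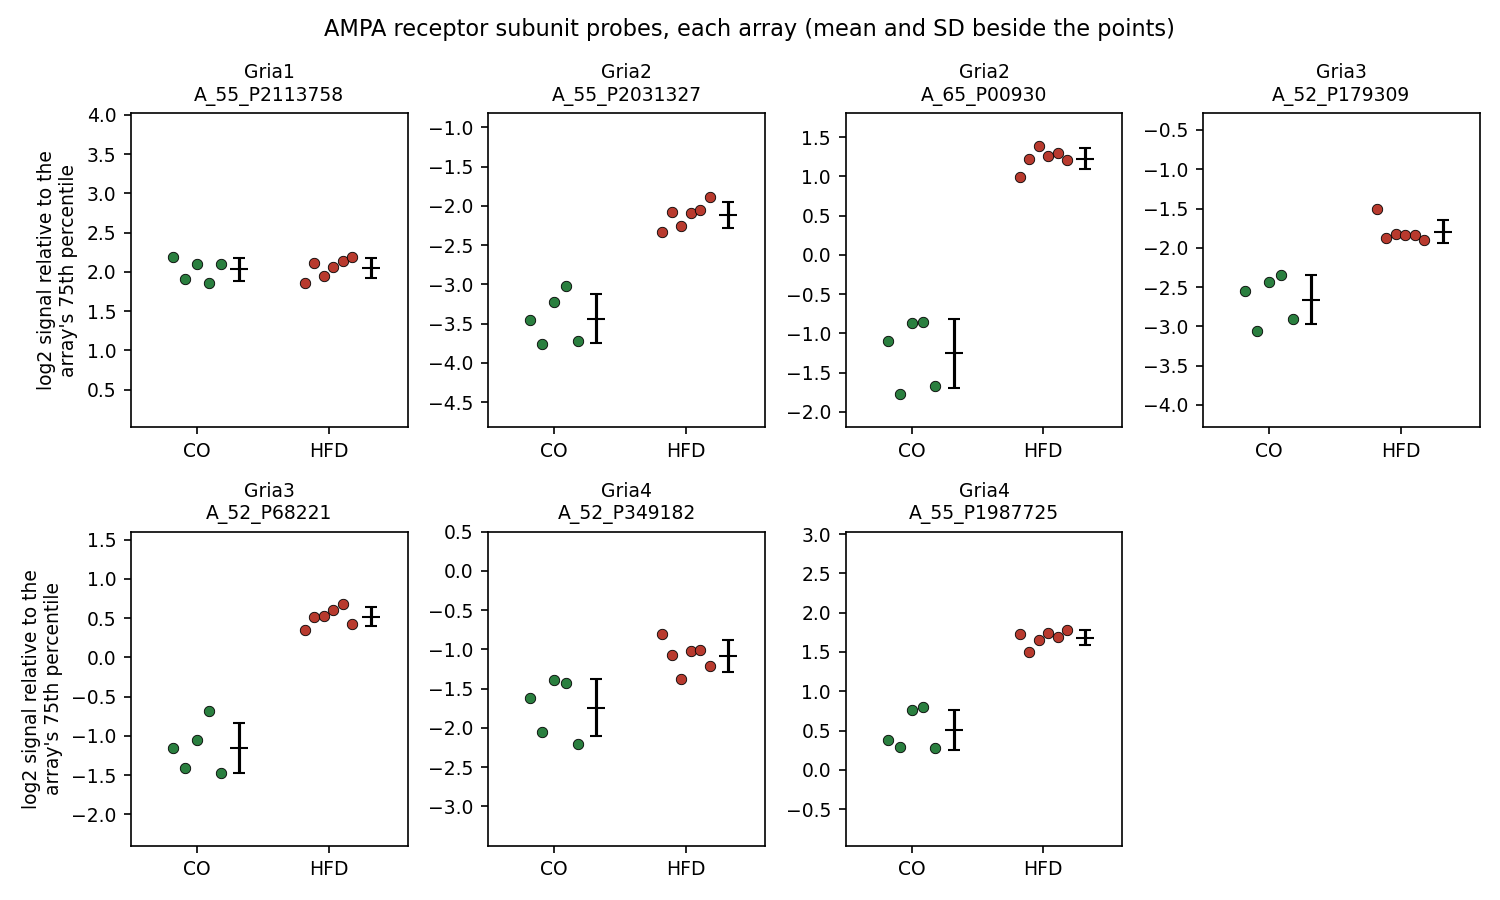
Each point is 1 array, with its log2 signal relative to the array's 75th percentile on the vertical axis and the group on the horizontal axis, and the bar beside the points gives mean and SD (CO n = 5, HFD n = 6). The 6 probes of Gria2, Gria3 and Gria4 do not overlap between the groups, and the Gria1 probe does, with means of 2.03 and 2.05. All panels span the same height.

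Grik1, a subunit of the low-affinity kind, rose with little spread in either group. Its probe A_51_P282609 had signals of 1100, 1113, 1132, 1512 and 1043 in CO samples 1 to 5 and of 2776 to 3207 in HFD (median 2943). The increase was 0.94 on the log2 scale (SE 0.061), or 1.93-fold (limma adjusted p = 3.50e-07).

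Grik2 encodes the kainate subunit GluK2, and its 2 probes, which carry different transcript accessions, gave different results. A_55_P2039981 (NM_010349) was dim in CO, at 109, 65.0, 92.7, 113 and 38.7 in samples 1 to 5, and read 392 to 532 in HFD (median 475). It rose by 2.19 (SE 0.21), or 4.56-fold (limma adjusted p = 5.55e-06), without overlap. With a normexp background correction the increase was 1.38 (limma adjusted p = 3.69e-04). A_55_P2039992 (NM_001111268) read 83.5 to 115 in CO and 112 to 152 in HFD. Relative to the array percentile its difference was 0.01, with a 95% interval from -0.14 to 0.16 (limma adjusted p = 0.878). The difference between the 2 probes' shifts was 2.18 (exact permutation test, two-sided, adjusted p = 0.00541 over 5 probe pairs). Under quantile normalization the second probe passed the threshold as well, at 0.25.

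Grik3 had 1 bright and 1 very dim probe. On A_66_P120555 the levels were 0.28 ± 0.19 (SD, n = 5) among the CO samples and 0.34 ± 0.19 (SD, n = 6) among the HFD samples, and the groups overlapped (difference 0.06, limma adjusted p = 0.665). A_55_P2158251 was well above background on 5 of 5 CO arrays and 2 of 6 HFD arrays, with signals of 22.6 to 33.3 and 16.1 to 34.9. Its difference was -0.52 (SE 0.17, limma adjusted p = 0.0168), with most HFD values near background, so that no fold is given. It was 0.028 under quantile normalization and -0.28 with normexp (limma adjusted p = 0.852 and 0.727).

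The high-affinity subunits Grik4 and Grik5 were lower in HFD offspring relative to the array percentile. Grik4 (A_51_P384994) had signals of 10777, 10978, 11148, 13090 and 11067 in CO samples 1 to 5 and of 7112 to 8326 in HFD (median 7449). It fell by 0.99 on the log2 scale (SE 0.066), or 1.99-fold (limma adjusted p = 4.64e-07), and was the only member probe with every HFD sample below every CO sample. Grik5 (A_51_P428754) had log2 levels of 2.21, 2.23, 2.01, 1.80 and 2.21 in CO samples 1 to 5 and of 1.71 to 1.93 in HFD. Its signals were not lower, at 9702 to 12001 in CO (median 10276) and 10395 to 11916 in HFD (median 11443). Relative to the percentile Grik5 fell by 0.31 (SE 0.087, limma adjusted p = 0.00748), with CO sample 4 inside the HFD range. The median over all genes was -0.17. With normexp Grik5 fell by 0.57.

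**Figure D2:**
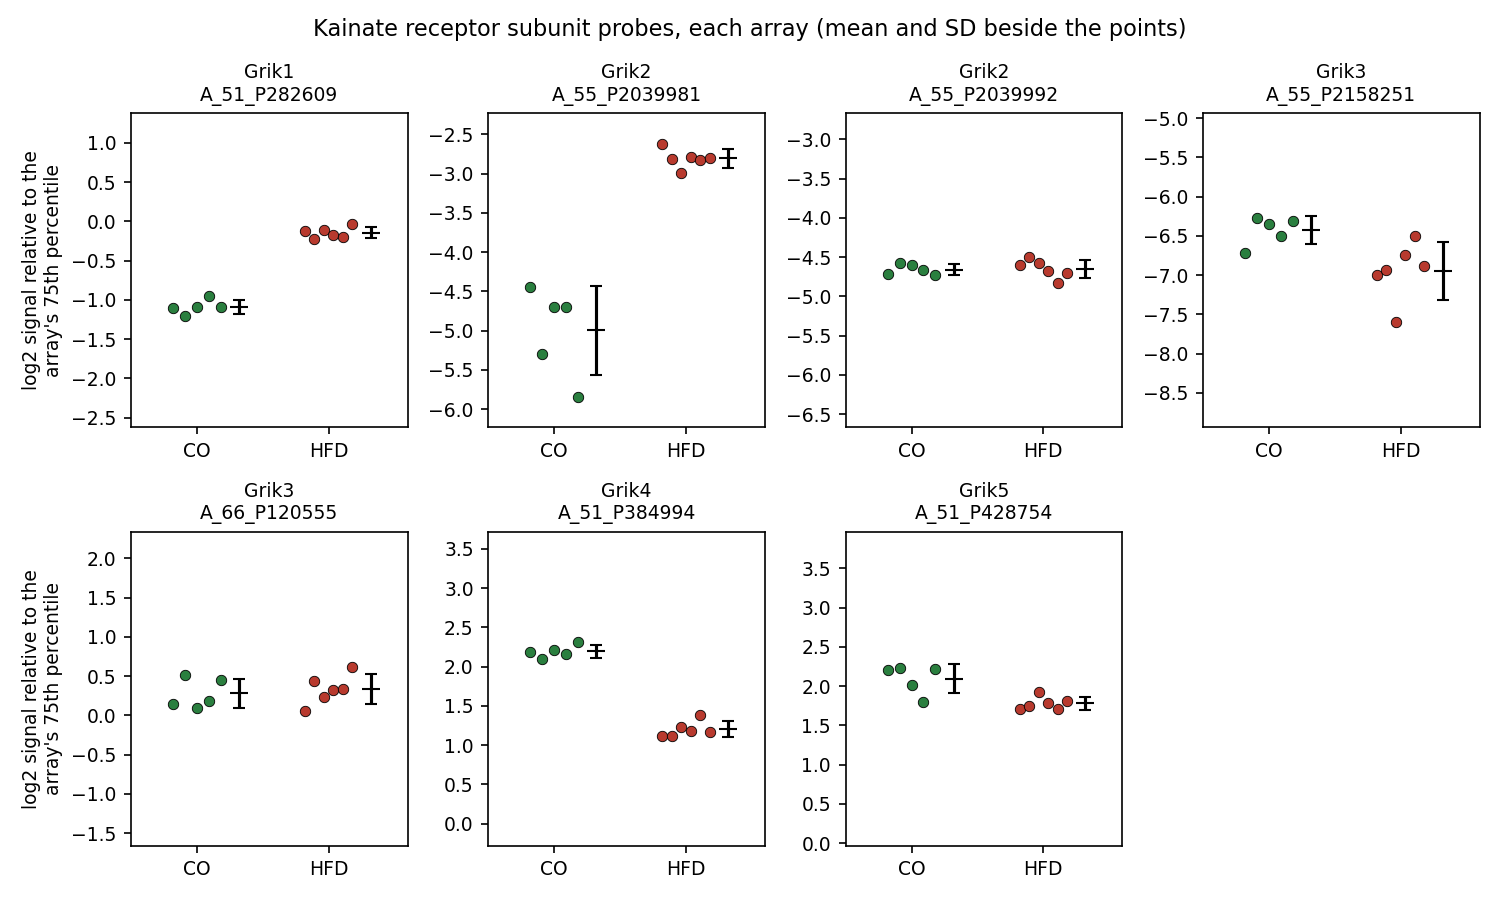
Each point is 1 array, with its log2 signal relative to the array's 75th percentile on the vertical axis and the group on the horizontal axis, and the bar beside the points gives mean and SD (CO n = 5, HFD n = 6). Grik1 and 1 of the 2 Grik2 probes lie higher in HFD and Grik4 lies lower, all without overlap. All panels span the same height.

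Ratios of subunits within an array do not depend on a factor common to the whole array, though quantile normalization and background correction can move them. All 16 ratios, 6 among AMPA and 10 among kainate subunits, differed between the groups (exact permutation tests, two-sided, adjusted p = 0.00231 for each but Grik3 to Grik5, with 0.0173). They restate the shifts of the same brightest probes given above and are not separate evidence. Ratios of other genes were not tested, and with 22.2% of all genes higher and 44.1% lower, many other pairs may differ too. The ratio of Gria1 to Gria2 shifted by -2.46, with means of 3.29 ± 0.45 (SD, n = 5) for CO and 0.83 ± 0.14 (SD, n = 6) for HFD. Gria1 to Gria3 shifted by -1.65 and Gria1 to Gria4 by -1.16. Gria2 also rose relative to Gria3, by 0.81, and relative to Gria4, by 1.30. Thus, by their brightest probes, the AMPA subunits stood in the order Gria2, Gria3, Gria4 and Gria1 by their shift, and every step passed its test. The order did not hold for every choice of probe. The dimmer Gria2 probe, at 1.32, rose less than the brighter Gria3 probe, at 1.67. The dimmer Gria3 probe, at 0.86, rose less than the brighter Gria4 probe, at 1.18. Among kainate subunits the Grik1 to Grik2 ratio shifted by -1.25, and Grik2 gained 2.13 over Grik3, 2.50 over Grik5 and 3.18 over Grik4. These Grik2 ratios use A_55_P2039981, which by group mean was the brighter Grik2 probe in HFD only. Grik1 to Grik4 shifted by 1.94 and Grik4 to Grik5 by -0.68. With the mean over each gene's probes 14 ratios passed, and those lost were Grik1 to Grik2, at -0.16, and Grik3 to Grik5, at 0.08 (exact permutation tests, adjusted p = 0.256 and 0.593). Grik1 to Grik2 was also lost with normexp, at -0.43 (exact permutation test, adjusted p = 0.0909). The 2 probes of each of the 5 genes with a pair also shifted unequally. The Grik3 pair lost its call under quantile normalization, at -0.03, and with normexp, at -0.31 (exact permutation tests, adjusted p = 0.870 and 0.541), and the other 4 pairs passed under both. For Gria2, Gria3 and Gria4 the dimmer probe shifted less, by -1.16, -0.81 and -0.52.

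**Figure D3:**
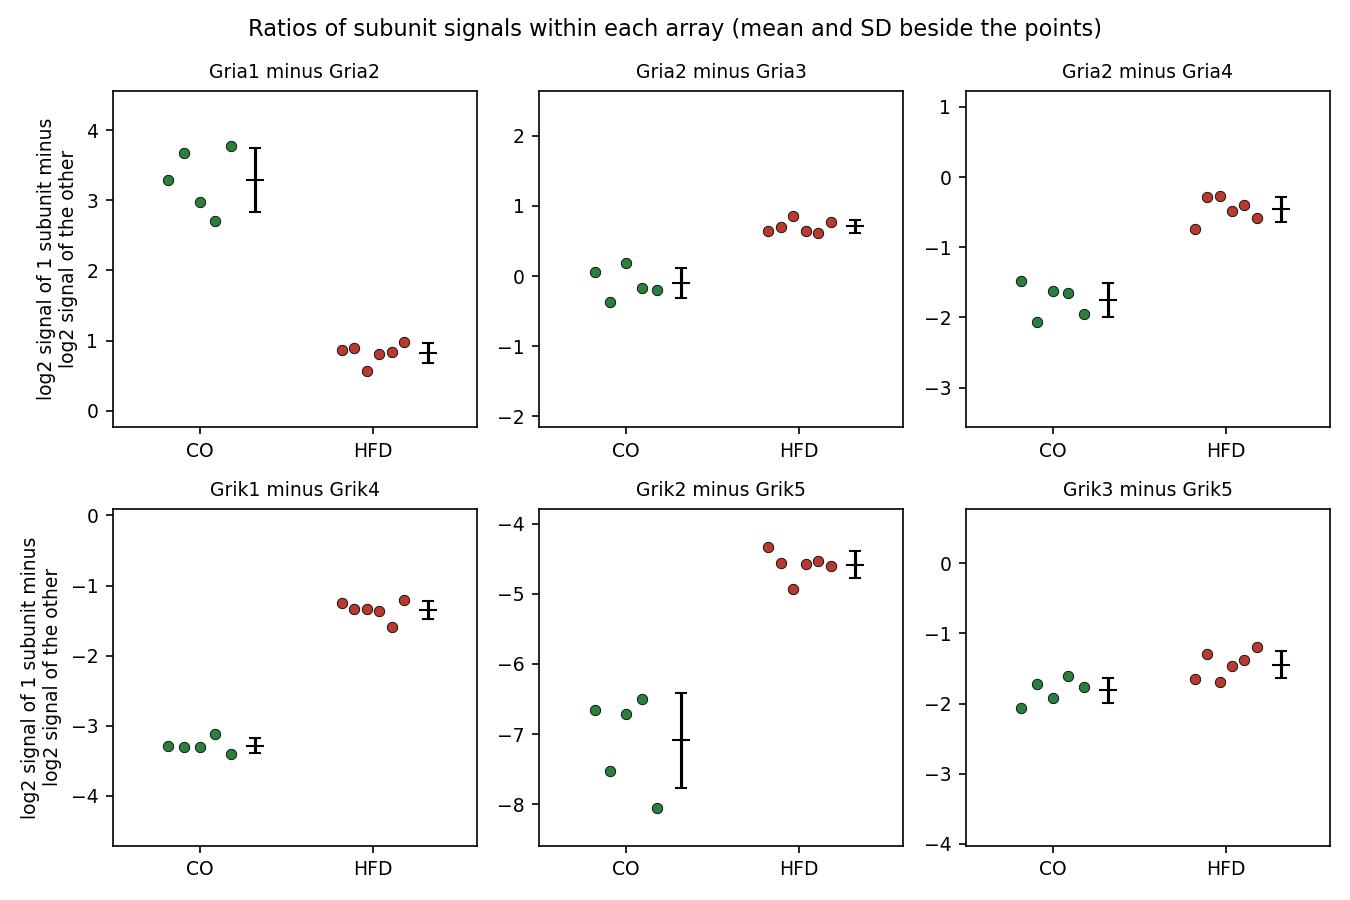
Each point is 1 array, and the vertical axis gives the log2 signal of 1 subunit's brightest probe minus that of the other, for 6 of the 16 pairs, with mean and SD beside the points (CO n = 5, HFD n = 6). The level of a panel depends on both probes, and the shift between groups is what the panel shows, such as the fall from 3.29 to 0.83 for Gria1 minus Gria2.

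Under every scaling tried, differences kept their direction for Gria2, Grik1, Grik4, Grik5, the brighter Gria3 and Gria4 probes, and Grik2 A_55_P2039981. Relative to the spiked control RNAs the median of all probes was -0.85, against -0.18 relative to the percentile, and Gria2 (A_65_P00930) was still 1.81 higher and Grik2 (A_55_P2039981) 1.52 higher. On that scale the brighter Gria3 and Gria4 probes were 1.00 and 0.51 higher and Grik1 0.27 higher, and Grik4 and Grik5 were at -1.66 and -0.98. Markers of striatum also differed between the groups. Of 12 striatum markers 0 were higher and 9 lower in HFD, beside 22.2% and 44.1% of all genes. Their median was -1.21, and all 12 were well above background on all arrays. Their summed level relative to the percentile was 22.5 to 119 in CO and 15.8 to 41.5 in HFD. Adora2a was at -2.71 and Ppp1r1b at -2.06 among them. Within CO, the mean log2 level of the striatum markers was 1.66, 1.95, 0.46, -0.25 and 1.44 in samples 1 to 5. Samples 3 and 4, lowest by that mean, had the most Gria2. They also had the highest mean of the thalamus markers, at -0.27 and -0.36, against -0.88 to -0.54 in the other CO samples. What links these levels was not tested. With the striatal mean as a covariate, Gria2 (A_65_P00930) was 2.16 higher, Gria3 (A_52_P68221) 1.42 and Gria4 (A_55_P1987725) 0.96. Grik1 was 0.88 and Grik2 (A_55_P2039981) 1.96 higher, Grik4 was at -0.99, and all of these passed the threshold. Grik5 was at -0.13 and no longer passed it (limma adjusted p = 0.265), nor did the dimmer Gria4 probe, at 0.35, or the dim Grik3 probe, at -0.38 (limma adjusted p = 0.143 and 0.198).

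**Figure D4:**
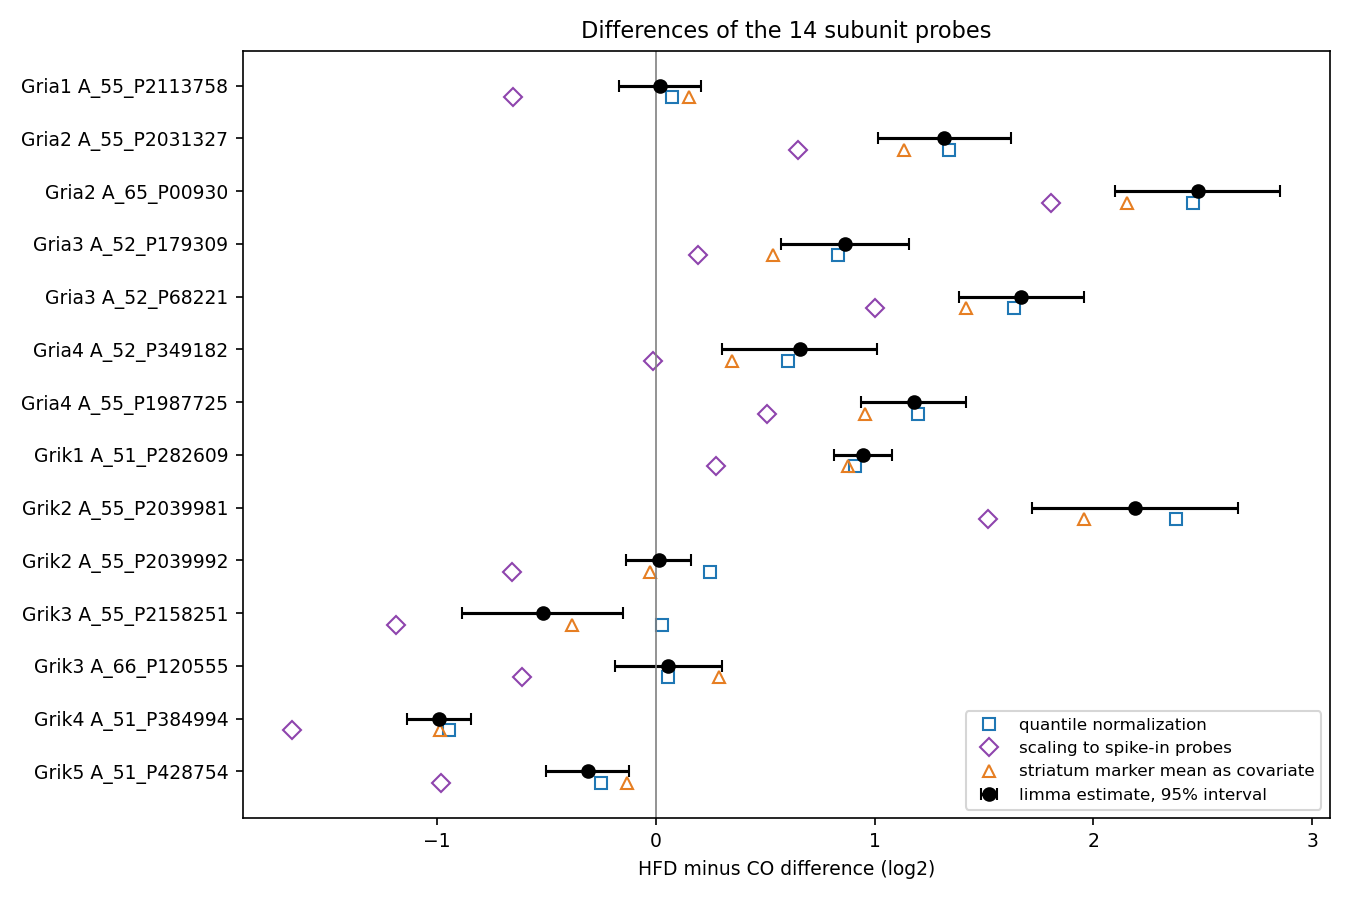
The horizontal axis gives the HFD minus CO difference on the log2 scale for each of the 14 probes, as the limma estimate with its 95% interval (black) and as the estimate under 3 other settings (open symbols; CO n = 5, HFD n = 6). Scaling to the spiked control RNAs moves all probes to the left by about the same amount, and Gria2, Grik2 and Grik4 keep their sides under all settings drawn except the second Grik2 probe.

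Other cell and region markers moved as follows, and their part in the subunit differences was not tested. Over all genes 22.2% were higher and 44.1% lower, and the marker counts are read against those shares. Of 10 thalamus markers 7 were higher and 1 lower (Synpo2 1.18, Rora 1.06), with a summed level of 14.3 to 25.3 in CO and 24.8 to 35.3 in HFD. Of 12 markers of cortex and hippocampus 2 were higher and 5 lower (Nrgn -1.34), with sums of 16.9 to 29.9 and 8.88 to 17.6. Of 12 neuron markers 6 were higher and 2 lower (Map2 1.35, Elavl4 0.71), with sums of 213 to 222 and 230 to 255. Hypothalamus markers were present, with 18 of 20 well above background on all arrays, and 4 were higher and 2 lower (Lhx1 -1.14). Sim1, counted among those higher, was well above background in HFD and on no CO array. It passed the brightness filter only through HFD, where it is high, so its call carries no weight and no fold is given. Of 12 astrocyte markers 3 were higher and 2 lower (Gfap -1.31, Aldh1l1 -0.53), with sums of 209 to 281 and 206 to 247. Of 12 oligodendrocyte markers 1 was higher and 8 lower (Ermn 2.44), with sums of 370 to 417 and 319 to 398. Of 6 markers of oligodendrocyte precursors 0 were higher and 4 lower (Gpr17 -0.78, Olig1 -0.37), with sums of 68.5 to 78.8 and 43.1 to 59.2. Of 12 microglia markers 3 were higher and 6 lower (Csf1r -0.82, Itgam 0.69), with sums of 67.9 to 75.9 and 75.6 to 88.3. A sum weighs bright genes most, and the mean log2 level of these markers moved the other way. It was 1.245 to 1.36 in CO and 0.97 to 1.30 in HFD.

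Among the samples of a group, the levels of the raised AMPA subunits were positively correlated. After subtraction of each group's mean, the brightest probes of Gria2 and Gria3 correlated with r = 0.86 and those of Gria2 and Gria4 with r = 0.74 over 11 arrays, and the 2 Gria2 probes with r = 0.83. The Grik1 probe gave r = 0.49 with the brighter Gria2 probe, 0.43 with that of Gria3 and 0.68 with that of Gria4. With A_55_P2039981 of Grik2 it gave r = 0.23. Grik5 and Gria3 gave r = -0.77. These are descriptions, since all points share their array's scaling. Among 17152 genes, the 3 most like Gria2 by the same measure were Yme1l1 (r = 0.97), St18 (r = 0.96) and Golim4 (r = 0.96). Those most like Grik4 were Dpf3 (r = 0.91), Muc5b (r = 0.89) and Bnc2 (r = 0.85).

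Of 90 other genes that act with these receptors 86 were tested, and 20 were higher, 32 lower and 34 not past the threshold, with a median of -0.08. Over all genes 22.2% were higher and 44.1% lower, so these counts, and those of the short lists that follow, are read against that background, and the 86 genes as a whole lay near it. AMPA auxiliary subunits set gating and surface delivery, and of 22 tested 1 was higher and 9 lower. Olfm3 rose by 1.55, and Cacng3 fell by 0.90, Gsg1l by 0.79 and Olfm2 by 0.62. Of the 4 kainate auxiliary genes Neto2 rose by 0.82 and C1ql3 by 0.78, C1ql2 fell by 0.64, and Neto1 was at 0.13 (limma adjusted p = 0.296).

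Among 26 genes of trafficking and anchoring 7 were higher and 13 lower. The motors Myo5a and Kif5c rose by 1.10 and 0.68 and the recycling GTPase Rab11a by 0.40. The scaffold genes Dlg4, which encodes PSD-95, and Dlg2 fell by 1.18 and 1.01, and Rab8a by 0.52. The enzymes that edit subunit transcripts differed among themselves. Adarb1, which edits the calcium site of Gria2, was at 0.00 (SE 0.069, limma adjusted p = 0.985), Adar fell by 0.34 and Adarb2, which has no known editing activity, rose by 1.00. The arrays do not measure editing.

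Of 14 kinases and phosphatases that act on the subunits 3 were higher and 4 lower. Camk2d rose by 0.73, Prkca by 0.59 and Prkacb by 0.21, while Prkaca fell by 0.67 and Fyn by 0.25. The related delta and NMDA subunits were split, with 3 of 9 higher and 3 lower. Grin2b rose by 0.72 and Grin2a by 0.47, and Grin3b fell by 0.48, Grin3a by 0.32 and Grin2c by 0.29. Of 8 genes of glutamate release and uptake 3 were higher and 1 lower. The vesicular transporter gene Slc17a6, also among the thalamus markers, rose by 0.91 and Glul by 0.42, and Slc17a7, also a cortical marker, fell by 0.78.

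**Figure D5:**
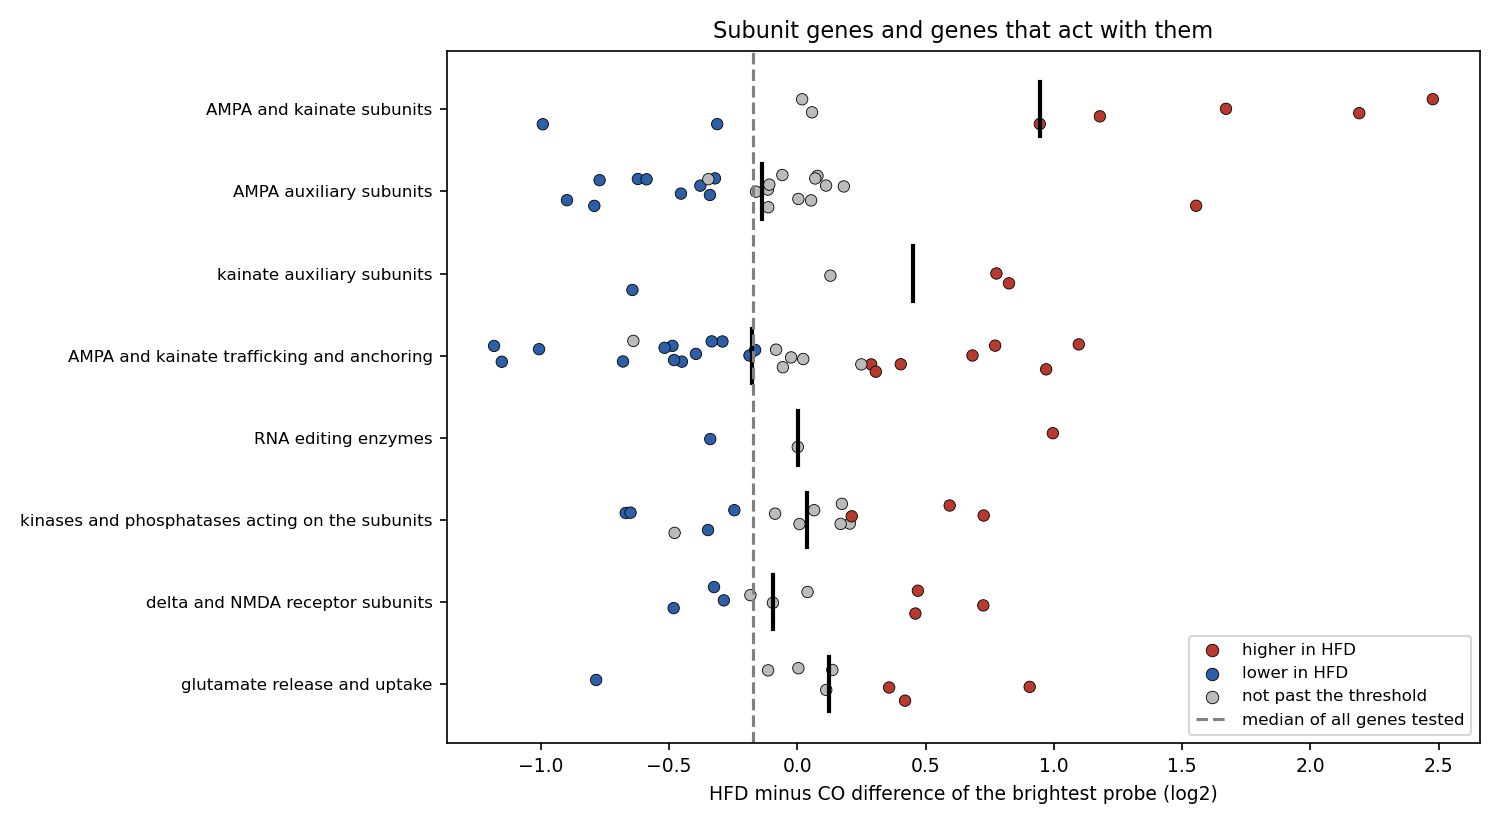
Each point is 1 gene, placed by the HFD minus CO difference of its brightest probe on the log2 scale, in 8 groups (vertical jitter carries no value; CO n = 5, HFD n = 6). Black bars are group medians and the dashed line is the median of all genes tested, -0.17, and the 9 subunit genes have a median of 0.94. Grik2 is drawn by A_55_P2039981, which by group mean was the brighter Grik2 probe in HFD only.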

How the data were processed

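Hypothalamic RNA was hybridized to 1-colour Agilent mouse arrays, 1 array per sample (5 CO, 6 HFD). The authors deposited the scanner output, and the values used are intensity values from which Agilent Feature Extraction had subtracted the background (version 10.8 in the submitters' processing notes, 10.7.3.1 in the file headers). Control and outlier spots were left out, and log2 signals were taken relative to the 75th percentile of each array. Of 39429 mouse probes 26369 were named by accession through a RefSeq gene table (GRCm38.p6). The 31796 probes well above background on at least 5 arrays were fitted with limma 3.58.1 in R 4.3.3 (lmFit and eBayes, two-sided, Benjamini-Hochberg adjustment, threshold 0.05), with version 1.17.8 of data.table and 1.5.0 of statmod. Gene counts came from a second fit on each gene's brightest probe. Ratios were tested by exact permutation over samples. The scripts were tested on simulated data. The number of arrays limits the precision.

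The members and lists were chosen with earlier results of these data known. All probes of the 9 genes and the 3 editing enzymes are named, and in other lists up to 3 genes higher and 3 lower with the smallest adjusted p, up to 2 markers per list with the largest difference, and the 3 genes most correlated with a member, printed for Gria2 and Grik4. Some genes that this rule names are not reported here. Alternatives covered scaling, background correction, filters, blocks, array weights, a striatal covariate, stricter thresholds, the Rank Product test named in the methods, and leaving out each array. The shortened REST motif was chosen after the Gria2 sequence had been read.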

Additional observations from a re-analysis of the deposited data

Results flagged for a closer look

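Of 28 sets of values, 14 probes in each of 2 groups, 1 held a sample far from the others, where chance marks about 1 in 20. On the dimmer Gria3 probe, A_52_P179309, HFD sample 1 was at -1.50 and the other HFD samples were at -1.90 to -1.82. Its gap was 0.807 of the group's range, above the limit of 0.625 for 6 samples. The brighter Gria3 probe had no such sample.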

How the results depend on the processing

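Leaving out each array in turn gave 8 member probes higher and 3 lower, and 5 genes higher and 2 lower, every time. Of the other genes that act with these receptors, 19 to 21 were then higher and 29 to 36 lower. With the replicate number as a block the counts were 8, 3, 5 and 2, and 18 and 31, but the numbers do not pair the samples (correlations of deviations -0.09 to 0.22). With the leading number of the CO labels as a random block the counts were 8, 3, 5 and 2, and 20 and 31. Scaling to the spiked control RNAs gave 6 probes higher and 6 lower, 5 genes higher and 4 lower, and 2 other genes higher and 71 lower. Under it the sign turned for Gria1 (-0.65), Gria4 A_52_P349182 (-0.013), Grik2 A_55_P2039992 (-0.66) and Grik3 A_66_P120555 (-0.61), and under quantile normalization for Grik3 A_55_P2158251 (0.028). The share of called probes that were higher was 35.1%, and 8.12% with the spiked RNAs, 42.1% with quantile normalization and 44.4% with normexp on median signals, an alternative added after seeing the data because normexp on mean signals could not be run. The striatal covariate left 1 probe and 1 gene lower. An adjusted p under 0.001 left 1 probe and 1 gene lower, and 12 other genes higher and 13 lower. A difference of at least 2-fold left 5 probes higher and 0 lower, 0 genes lower, and 2 other genes higher and 3 lower. For the covariate and these stricter thresholds the share of all probes or genes called was not counted. The Rank Product test at a share of false positives under 0.001 called 2 probes higher and 0 lower, 3 genes higher and 0 lower, and 0 other genes in either direction, where limma called 20 and 32. At an unadjusted p under 0.05 it called 1 member probe and 1 member gene lower, and 15 other genes higher and 6 lower. The share of all genes at that p was not counted, so these counts have no background to be read against. At the share of false positives under 0.001 the Rank Product test called 2.77% of all probes higher and 2.33% lower. Of all genes it called 2.55% higher and 2.21% lower. The Grik1 to Grik2 shift was -0.43 with normexp (exact permutation test, adjusted p = 0.0909), and Grik3 to Grik5 was 0.08 with the mean over probes, and neither passed its test there. The causes were not tested. Dim signals limit the second Grik3 probe.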
